A study of Homo sapiens with 38 samples.

Results

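The genes described here are 7 members of the Nodal pathway that carry or limit the signal outside the cell, together with the nuclear partner that carries it onto DNA: the ligands NODAL and GDF3, the co-receptor TDGF1, the secreted antagonists LEFTY1, LEFTY2 and CER1, and the transcription factor FOXH1. They were chosen by symbol, with no threshold on their values but with earlier results of these data known, and are 7 of the 57133 genes in the count table. All 7 passed the filter on low counts, which kept 16674 genes.

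The RNA came from Shef6, an established human embryonic stem cell line, grown as naive cells adapted to culture without feeder cells. Naive cells were kept in PXGL medium, either on serum-coated dishes or on the basement membrane extract Geltrex, which was also used for differentiation. The media were N2B27, a basal medium without added growth factors, E8 and mTeSR, commercial media that contain FGF2 and a ligand of the TGFβ and Activin family, N2B27 with XAV, a tankyrase inhibitor, and FAX, which is N2B27 with FGF2, Activin A and XAV. Sequencing of 3′ ends gave 38 libraries in 19 groups of 2. Experiment Ex1 (30 libraries) held naive cells on serum and on Geltrex and a time course. N2B27 and E8 were sampled at days 2, 3, 4, 6 and 8 and mTeSR from day 4, at days 4, 6 and 8. Experiment Ex2 (8 libraries) held naive cells on Geltrex and cells at day 4 in N2B27, XAV and FAX. The title and time label of the Ex2 naive libraries give day 0, whereas their library names carry day 4. All libraries are from 1 line. Legends of the study call the replicates of a group technical in most places, so p-values measure only the spread between these samples, which may be technical.

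Nodal is a secreted ligand of the TGFβ family that binds type I and type II activin receptors with the help of an EGF-CFC co-receptor and leads to phosphorylation of SMAD2 and SMAD3. FOXH1 brings SMAD complexes to many target genes, among them NODAL itself and its antagonists LEFTY1 and LEFTY2, so that the pathway both sustains and limits itself. In human pluripotent cells the pathway is known for its part in maintaining primed pluripotency and, at higher activity, for inducing mesendoderm, in which CER1 is also expressed.

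The unit of level is CPM (counts relative to library size, after scaling by the trimmed mean of M values), and levels are compared between libraries for 1 gene, never between genes. A gene is said to have risen or fallen where edgeR's quasi-likelihood test gave a Benjamini-Hochberg adjusted p under 0.05 over all genes and the log2 fold change was above 1 in size. All adjusted p-values below come from that test. Counts of 0 calls are given with the number of tests at an unadjusted p under 0.05. In bulk RNA, fewer cells of a type and less RNA per cell cannot be told apart.

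The regions upstream of 3 members are shown because their genes differ in course and because FOXH1 and SMAD proteins are known to act on regulatory DNA of the pathway. RefSeq promoter entries (GRCh38.p14) were found for 4 of the 7 members, NODAL, GDF3, TDGF1 and CER1. Each line below gives the 250 bases before the annotated start, 5′ to 3′ on the minus strand. The RefSeq start of NODAL lies within the longer span that GENCODE gives the gene, so its window is inside that span. Capitals mark the FOXH1 motif TGTGNATT (reverse AATNCACA) or the SMAD motif CAGAC (reverse GTCTG), searched on both strands.
NODAL, chr10:70441682-70441931: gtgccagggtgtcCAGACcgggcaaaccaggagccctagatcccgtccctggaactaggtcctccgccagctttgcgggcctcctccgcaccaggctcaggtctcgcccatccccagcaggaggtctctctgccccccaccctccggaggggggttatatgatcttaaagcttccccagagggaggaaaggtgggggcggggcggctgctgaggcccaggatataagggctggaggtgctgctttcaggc
GDF3, chr12:7695776-7696025: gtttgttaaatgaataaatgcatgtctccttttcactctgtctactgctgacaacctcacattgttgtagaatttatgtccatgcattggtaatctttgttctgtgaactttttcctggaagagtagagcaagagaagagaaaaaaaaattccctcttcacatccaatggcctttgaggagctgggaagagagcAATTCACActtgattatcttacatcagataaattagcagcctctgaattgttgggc
CER1, chr9:14722734-14722983: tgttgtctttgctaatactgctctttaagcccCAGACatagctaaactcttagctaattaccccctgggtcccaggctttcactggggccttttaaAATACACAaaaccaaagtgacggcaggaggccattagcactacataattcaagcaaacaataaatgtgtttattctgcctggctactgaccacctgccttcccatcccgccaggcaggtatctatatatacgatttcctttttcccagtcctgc

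A FOXH1 motif begins at base -56 from the start of GDF3 and -154 from that of CER1, and 2.89% of 35116 promoter windows of this length hold one. A SMAD motif begins at base -237 from the NODAL start and -218 from the CER1 start, and 38% of the windows hold one. Neither motif was found in the windows before the annotated starts of TDGF1. These matches describe the letters only.

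By the GENCODE 44 annotation of GRCh38, NODAL lies at chr10:70431936-70447951, GDF3 at chr12:7689784-7695775, LEFTY1 at chr1:225886282-225911382, LEFTY2 at chr1:225936598-225941383, CER1 at chr9:14719724-14722733 and FOXH1 at chr8:144473412-144475849, all on the minus strand. TDGF1 lies on the plus strand at chr3:46574534-46582457. LEFTY1 and LEFTY2 are neighbours with near-identical coding parts, and 31.3% of the 50-base windows of the LEFTY1 transcript also occur in LEFTY2. In the last 500 bases, where 3′ libraries take their reads, 0 of 451 windows were shared. TDGF1 has a processed copy on the X chromosome, TDGF1P3, and 257 of the 451 windows in its last 500 bases (57%) were shared with it, so TDGF1 is reported as uncertain. Other annotated genes overlap NODAL, TDGF1, LEFTY1, LEFTY2 and FOXH1, while none overlaps CER1 or GDF3.

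The libraries held 3038046 to 5612354 counts each, so that 3 counts, taken as the floor, correspond to 0.520 to 1.06 CPM. The pluripotency genes POU5F1, SOX2 and NANOG were detected in every library, and 0 of the 3 was called at day 8 against naive cells in any medium (3 of 9 tests at an unadjusted p under 0.05). Of 4 markers of naive cells, all 4 fell by day 8 in N2B27 and mTeSR and 3 in E8, and all 3 primed markers rose in each medium. A score of the main axis of variation within groups placed 4 libraries apart, replicate 2 of N2B27 day 2, both of E8 day 2 and replicate 1 of E8 day 3, at -2.77 to -2.37 against -1.08 to 1.37 in the others. POU5F1 stood at 1500.1 and 1515 CPM in the E8 day 2 libraries against 336 to 560.5 in naive cells. Calls at days 2 and 3 that were lost without one of these libraries or with the score as a covariate are given as such, and the part of the score in those results was not tested.

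NODAL, the ligand itself, fell against the 6 naive libraries at E8 day 2 and in no other comparison with them. Its levels by day are drawn with those of the other members.

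**Figure D1:**
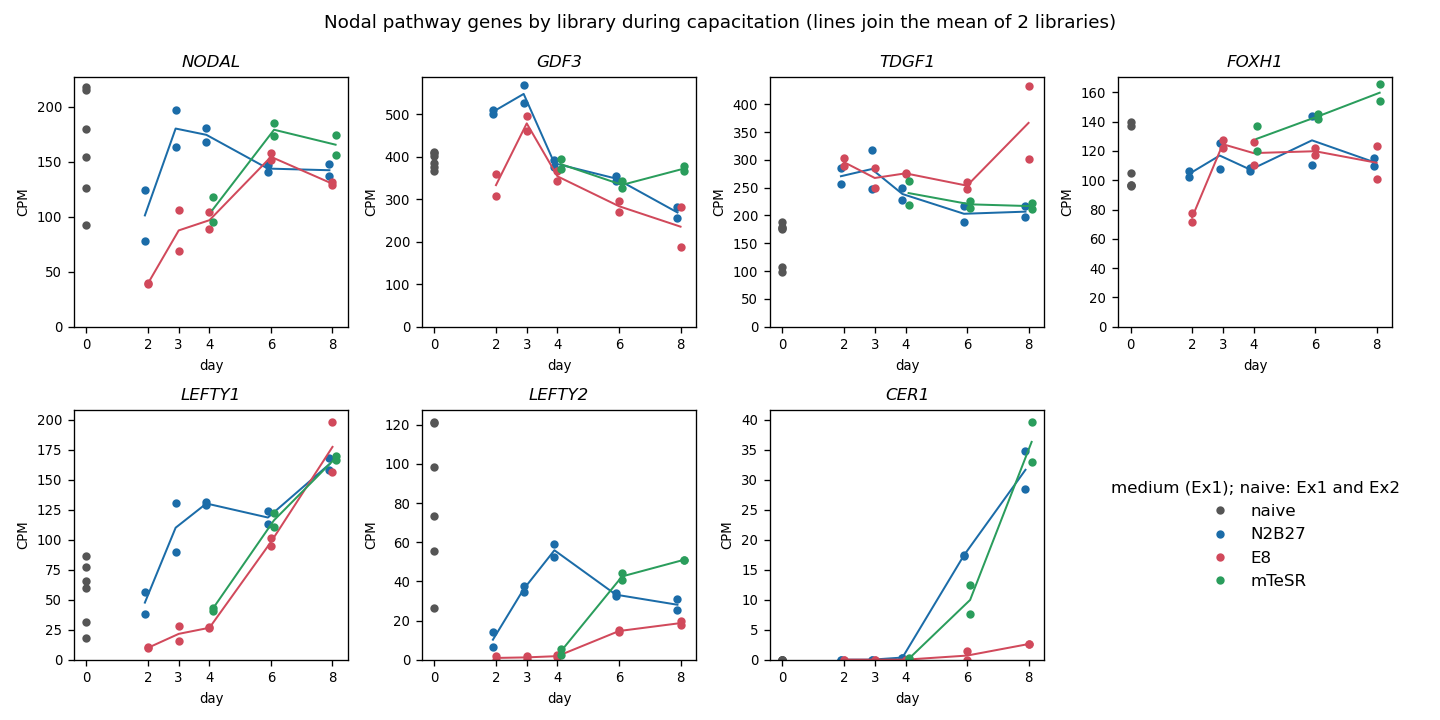
CPM of the 7 members in each library by day, with all 6 naive libraries in grey at day 0 and the media in colour; each point is 1 library, and the lines join group means. NODAL and LEFTY1 are lowest at E8 day 2, LEFTY2 is at 0 to 2.37 CPM in E8 up to day 4, and CER1 is at 0 in naive cells and reaches 28.5 to 39.6 CPM at day 8 in N2B27 and mTeSR.

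In the 6 naive libraries NODAL was lowest at 92.5, had a median of 167 and was highest at 218 CPM. In N2B27 the 2 libraries held 78.3 and 124 CPM at day 2, 163 and 197 at day 3, 168 and 181 at day 4, 140.5 and 147 at day 6, and 137 and 148 at day 8. In E8 they held 38.9 and 39.7 at day 2, 68.8 and 106 at day 3, 89.0 and 105 at day 4, 151 and 158 at day 6, and 129 and 131 at day 8. The E8 day 2 libraries were below every other library of the study, and from day 6 on NODAL was not called between E8 and N2B27. In mTeSR the values were 94.8 and 118 at day 4, 173 and 185 at day 6, and 156 and 175 at day 8.

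Against the naive libraries NODAL fell in 1 of 15 comparisons, E8 at day 2 (log2 fold change -2.07, SE 0.237, adjusted p = 1.39e-08), where 24.6% of all genes were called. At E8 day 4 the difference was -0.77 (SE 0.203, adjusted p = 0.00256) with overlapping values. At E8 day 3 it was -0.91, and -1.11 with a call against the 4 naive libraries of Ex1 alone. The day 2 value was -1.59 with the library score as a covariate (adjusted p = 3.43e-05), and it was -2.05 and -2.07 without either E8 day 2 library. Ranked by group mean, NODAL was highest in FAX (219 CPM) and naive cells on Geltrex in Ex1 (217 CPM), whose values overlap, and lowest in E8 at day 2 (39.3 CPM).

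GDF3, a ligand related to Nodal that also needs an EGF-CFC co-receptor, was called by edgeR in 0 of 45 comparisons (25 at an unadjusted p under 0.05; DESeq2, 0). Its naive libraries ranged from 366 to 410.3 CPM around a median of 394. In N2B27 it held 501 and 510.0 CPM at day 2, 527 and 568 at day 3 and 256 and 282 at day 8, and in E8 308 and 358 at day 2, 461 and 496 at day 3 and 188 and 282 at day 8. The day 3 libraries were thus above all naive libraries in both media and the day 8 libraries below them. In mTeSR, by contrast, GDF3 at day 8 was 366 and 378 CPM, at or near the lower end of the naive range. At day 2 GDF3 was lower in E8 than in N2B27 by a log2 difference of -0.60 (SE 0.114, adjusted p = 0.000654), which passed the test but not the fold threshold (-0.64 with the library score).

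TDGF1, the EGF-CFC co-receptor also known as Cripto, was lowest in naive cells, at 97.4 to 189 CPM with a median of 177. Its levels in differentiating cells were 229 to 249 CPM in N2B27 of Ex2, in N2B27 of Ex1 189 to 318, in E8 247 to 432, in mTeSR 212 to 262, in XAV 215 in both, and in FAX 203 and 205. Of all these libraries only replicate 2 of N2B27 day 6 (189) fell within the naive range. It rose in 1 of 15 comparisons with naive cells, E8 at day 8 (301 and 432 CPM, log2 fold change 1.24, SE 0.155, adjusted p = 3.35e-08), where 27.5% of all genes were called. Without replicate 1 of E8 day 8 the value was 0.93, under the fold threshold. E8 exceeded N2B27 at day 8 by 0.83 (SE 0.127, adjusted p = 1.49e-05). The processed copy TDGF1P3, which shares sequence with the co-receptor, was listed at 194 to 287 CPM in naive cells and 432 and 462 CPM at E8 day 8, so reads of TDGF1 and TDGF1P3 may not be told apart.

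The 2 Lefty genes encode secreted proteins that bind Nodal and its co-receptor and block signalling, and both are known direct targets of the pathway. They parted ways as naive cells differentiated. By day 8 LEFTY1 was above its naive level in N2B27, E8 and mTeSR, whereas LEFTY2 was below it in N2B27 and E8.

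For LEFTY1 the naive libraries ranged from 18.1 to 86.6 CPM with a median of 63.0. In N2B27 LEFTY1 held 38.4 and 56.6 CPM at day 2, 89.3 and 131 at day 3, 129 and 131 at day 4, 113 and 124 at day 6, and 158 and 168 at day 8. In E8 it held 9.55 and 10.2 at day 2, 15.3 and 27.7 at day 3, 26.0 and 27.2 at day 4, 94.4 and 102 at day 6, and 156 and 198 at day 8. From day 6 on, every N2B27 and E8 library was above the highest naive library. In mTeSR LEFTY1 held 40.9 and 43.3 CPM at day 4, 111 and 122 at day 6, and 167 and 169 at day 8. The day 8 libraries of the 3 media overlapped and were the highest of the study.

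Against naive cells LEFTY1 rose at day 8 in N2B27 by a log2 fold change of 1.5 (SE 0.259, adjusted p = 1.22e-05), in E8 by 1.62 (adjusted p = 2.81e-06) and in mTeSR by 1.54 (adjusted p = 9.33e-06). It fell in E8 at day 2 (-2.54, SE 0.415, adjusted p = 7.1e-06; -2.07 with the library score), day 3 (-1.41, adjusted p = 0.00116) and day 4 (-1.11, adjusted p = 0.00554). LEFTY1 was also called higher at day 6 in N2B27 (1.04) and mTeSR (1.01), but these calls were lost against the 4 naive libraries of Ex1 alone (0.72 and 0.69) and without either Ex2 naive library (0.84 and 0.92 in N2B27, 0.83 and 0.89 in mTeSR). They were also lost without replicate 1 of N2B27 day 6 (0.97) or replicate 2 of mTeSR day 6 (0.92), and when the counts of both Lefty genes were summed (0.11 and 0.18). Of 20 other settings in all, the N2B27 call was lost in 7 and the mTeSR call in 10, the latter also with no filter on low counts (0.99), with the library score (0.92) and in a fit of the compared libraries alone (adjusted p = 0.0580). Both were lost with the experiment as a covariate (0.82 and 0.79) and against naive cells on serum alone (0.91 and 0.87). The day 3 call in E8 was lost without replicate 1 of E8 day 3 (-1.07, adjusted p = 0.0675), and the day 4 call without either E8 day 4 library (adjusted p = 0.0551 and 0.0664) or either Ex1 naive library on Geltrex (-0.94 and -0.98). Both calls were also lost in a fit of the compared libraries alone (adjusted p = 0.0653 and 0.0990).

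LEFTY2 in the naive libraries ranged from 26.3 to 121 CPM with a median of 86.1. In N2B27 LEFTY2 held 6.41 and 14.0 CPM at day 2, 34.4 and 37.6 at day 3, 52.5 and 59.3 at day 4, 32.4 and 34.0 at day 6, and 25.3 and 30.8 at day 8. In E8 it was counted 0 and 5 times at day 2 (0 and 1.77 CPM), and it held 0.479 and 1.86 CPM at day 3, 1.25 and 2.37 at day 4, 14.2 and 15 at day 6, and 17.6 and 19.8 at day 8. All E8 libraries were below the lowest naive library, and those of days 2 to 4 were at or near the floor. In mTeSR LEFTY2 held 2.59 and 5.53 CPM at day 4, 40.9 and 44.2 at day 6, and 50.9 and 51.0 at day 8.

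LEFTY2 fell against naive cells at all 5 days in E8, with log2 fold changes of -6.57, -6.07 and -5.50 at days 2, 3 and 4, then -2.51 at day 6 and, at day 8, -2.16 (SE 0.355, adjusted p = 4.73e-06). The day 2 level rests on 5 counts in 1 of 2 libraries, which put it 104.1-fold below naive cells with a 95% counting interval of 44.5 to 321, and the fitted value was -5.53 without replicate 2, while without replicate 1 the level is 0. The sum of both Lefty genes gave no call at day 6 (-0.32, adjusted p = 0.408). In N2B27 LEFTY2 fell at day 2 (-3.01, SE 0.389, adjusted p = 2.26e-07) and again at day 8 (-1.58, SE 0.333, adjusted p = 0.000194), with smaller falls at day 3 (-1.21) and day 6 (-1.33). With the library score as a covariate the values were -6.02 and -5.91 at E8 days 2 and 3 and -2.67 and -1.09 at N2B27 days 2 and 3, all called. The sum of both Lefty genes gave -3.71, -2.62, -1.28 and 0.057 there, and the last was not called. At N2B27 day 6 (0.11), N2B27 day 8 (0.44) and E8 day 8 (0.48) the sum was above naive cells, without a call. LEFTY1 held most counts of the sum in N2B27 and E8, so the sum does not measure LEFTY2 alone. The LEFTY2 values of N2B27 at days 3, 6 and 8 overlapped those of the naive cells, through the Ex2 naive libraries at 26.3 and 55.3 CPM. Against the 4 naive libraries of Ex1 alone, 73.5 to 121 CPM, the fall at N2B27 day 8 was -1.86. The day 3 call was lost without replicate 1 of N2B27 day 3 (-1.15, adjusted p = 0.0662) and in a fit of the compared libraries alone (-1.19, adjusted p = 0.0774). In mTeSR LEFTY2 fell at day 4 (-4.35, SE 0.460, adjusted p = 1.59e-09) and was called at neither later day, although against the 4 naive libraries of Ex1 alone it was called lower at both (-1.26 and -1.002).

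The balance between the paralogs differed between naive and differentiating cells. LEFTY1 made up 36.1% to 44.9% of the counts of both in the naive libraries, 68.5% to 86.9% in N2B27 of Ex1, 84.4% to 100% in E8 and 73.0% to 94.1% in mTeSR. The shares of naive cells and of these media did not overlap. In FAX the share was 43.9% and 45.5%, next to the naive libraries, while N2B27 and XAV of Ex2 lay at 61.4% to 66.8%. When the counts of both genes were summed, the differences from naive cells at day 8 were 0.44 in N2B27, 0.48 in E8 and 0.64 in mTeSR, none of which passed the test (adjusted p = 0.194, 0.146 and 0.0550).

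**Figure D2:**
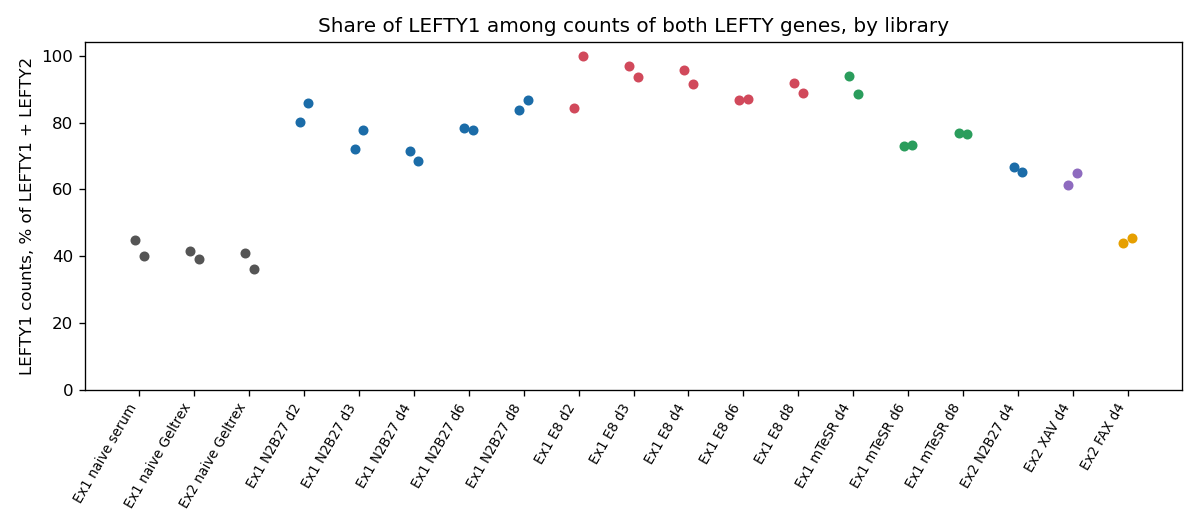
Share of LEFTY1 in the summed counts of LEFTY1 and LEFTY2, in percent, for each library by group; each point is 1 library. Naive and FAX libraries lie between 36.1% and 45.5%, and all other libraries lie at 61.4% or above.

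CER1, a secreted antagonist that binds Nodal and BMP ligands, was counted 0 times in all 6 naive libraries, in N2B27 at days 2 and 3, and in E8 at days 2, 3 and 4. A count of 0 allows up to 3 counts, so no absence is shown. In N2B27 it was counted 2 and 2 times at day 4, and held 17.3 and 17.5 CPM at day 6 and 28.5 and 34.8 at day 8. In E8 it was counted 0 and 6 times at day 6 and 14 and 11 times at day 8 (2.62 and 2.59 CPM). In mTeSR it was counted 0 times and once at day 4, and held 7.54 and 12.4 CPM at day 6 and 33.0 and 39.6 at day 8. The order at day 8, with mTeSR and N2B27 overlapping and E8 below both, differed from that of LEFTY1, whose day 8 levels overlapped in all 3 media.

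Against a floor of 3 counts in each naive library, CER1 was at least 23.8-fold higher at day 6 and at least 43.3-fold higher at day 8 in N2B27 (adjusted p = 2.93e-12 and 7.31e-14), at least 13.6-fold and at least 49.7-fold higher in mTeSR (1.16e-10 and 4.61e-14), and at least 3.56-fold higher at day 8 in E8 (9.16e-07). At N2B27 day 4 the test also made a call, but both groups were at or under the floor. The call at E8 day 6 rests on replicate 2, which held all 6 counts. CER1 passed the filter on low counts only through groups of days 6 and 8. Its p-values are thus not independent of its high level in those groups.

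FOXH1, the DNA-binding partner of SMAD2 and SMAD3, was called by edgeR in 0 of 45 comparisons (14 at an unadjusted p under 0.05; DESeq2, 1, the change of the difference between E8 and N2B27 from day 2 to 4). It ranged from 95.8 to 140.0 CPM in naive cells with a median of 101. Its lowest values were 71.2 and 77.8 CPM at E8 day 2, below every other library, and its highest were 154 and 166 at mTeSR day 8, above every other library. At day 2 FOXH1 was lower in E8 than in N2B27 by a log2 difference of -0.48 (SE 0.123, adjusted p = 0.00812), under the fold threshold (-0.47 with the library score). Without replicate 2 of E8 day 2 it did not pass the test (-0.41, adjusted p = 0.119). NODAL, LEFTY1 and FOXH1 thus each had their lowest values in the E8 day 2 libraries, which the library score set apart.

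Over the 15 comparisons with naive cells, which all share the same 6 naive libraries, members were called 29 times in 105 tests, 15 higher and 14 lower. Over all genes 20.8% of tests were calls, 13.7% higher and 7.18% lower. By comparison, the calls were LEFTY2 in N2B27 at days 2 and 3 (all genes 16.2% and 15.6%), CER1 at day 4 (18.4%), and CER1, LEFTY1 and LEFTY2 at days 6 and 8 (23.1% and 23.9%). In E8 they were NODAL, LEFTY1 and LEFTY2 at day 2 (24.6%), both Lefty genes at days 3 and 4 (17.8% and 20.8%), CER1 and LEFTY2 at day 6 (23.3%), and those with LEFTY1 and TDGF1 at day 8 (27.5%). In mTeSR they were LEFTY2 at day 4 (19.8%) and CER1 and LEFTY1 at days 6 and 8 (22.5% and 25.1%). FAX gave CER1 and LEFTY1 (17.1%), and XAV gave no member (17%; 3 of 7 at an unadjusted p under 0.05). XAV and FAX belong to Ex2, and 4 of the 6 naive libraries to Ex1. Against the 2 naive libraries of Ex2 alone, XAV was called higher for LEFTY1 (1.98, SE 0.208, adjusted p = 2.82e-09) and TDGF1 (1.07, SE 0.135, adjusted p = 1.22e-07).

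At equal days the media were compared within Ex1. At days 2 to 4 the feedback antagonists LEFTY2 and LEFTY1 were lower in E8 than in N2B27, with NODAL lower by a smaller amount at days 2 and 3, and none of the 3 was called at day 8. CER1 was lower in E8 at days 6 and 8.

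**Figure D3:**
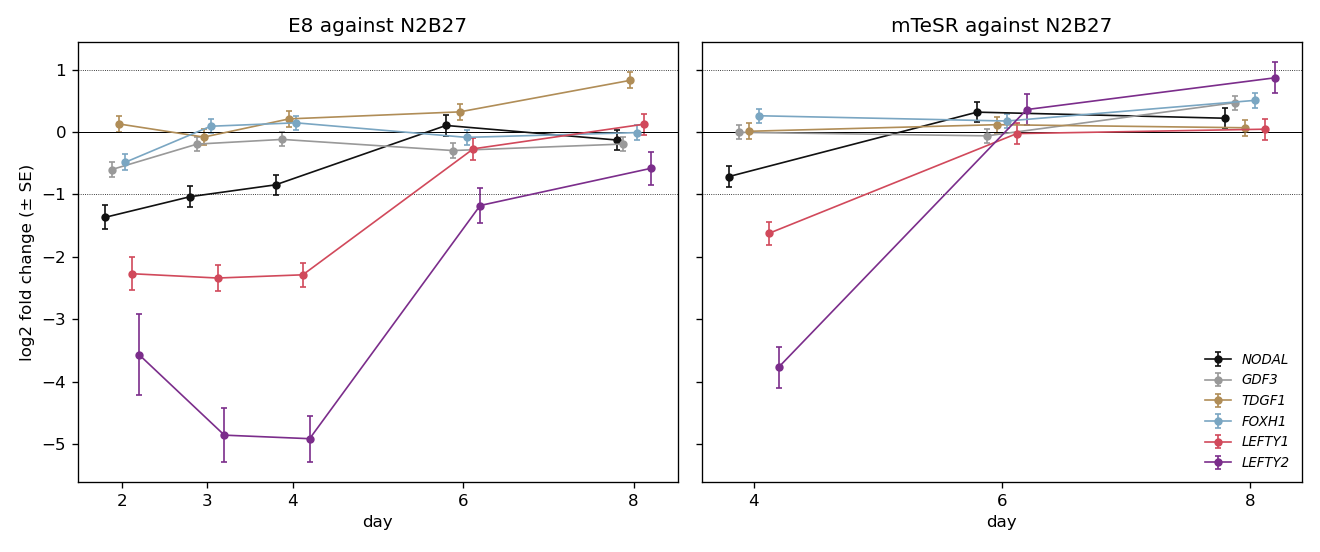
Log2 fold change of E8 and of mTeSR against N2B27 at each day for 6 members, with bars of 1 standard error and dotted lines at -1 and 1; CER1 is not drawn because it is at or near 0 until day 4. LEFTY1 and LEFTY2 lie below -1 in E8 at days 2 to 4 and in mTeSR at day 4, and at day 8 LEFTY2 is at -0.58 in E8 and 0.87 in mTeSR.

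In E8, NODAL was below its N2B27 level on day 2 (-1.37, SE 0.191, adjusted p = 2.34e-05; all genes 4.55%) and day 3 (-1.04, SE 0.166, adjusted p = 0.000156; all genes 1.68%). At day 4 its difference of -0.85 (SE 0.163, adjusted p = 0.000968) passed the test but not the fold threshold. The day 3 call was lost with the library score (-0.97), without replicate 1 of E8 day 3 (-0.76), without replicate 2 of N2B27 day 3 (-0.90) and in a fit of the compared libraries alone (-1.03, adjusted p = 0.235). The day 2 value ranged from -1.0 without replicate 1 of N2B27 day 2 to -1.65 without replicate 2, and was -1.16 with the score.

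LEFTY1 was lower in E8 by -2.27 at day 2 (adjusted p = 2.11e-06), -2.34 at day 3 (adjusted p = 1.1e-08) and -2.29 at day 4 (SE 0.193, adjusted p = 1e-09; all genes 2.49%), which is 4.89-fold lower at day 4. On 5 against 97 counts, LEFTY2 was 12.4-fold lower at day 2 (95% counting interval 5.12 to 39.0, log2 fold change -3.57, SE 0.653, adjusted p = 0.000464), and the fitted value was -2.53 without replicate 2 of E8 day 2. It was lower by -4.86 at day 3 (SE 0.432, adjusted p = 1.1e-08) and by -4.92 at day 4 (SE 0.369, adjusted p = 6.62e-11), which is 30.2-fold lower at day 4. The day 3 value rests on 11 against 328 counts (29.7-fold, 95% counting interval 16.4 to 60.1). It ranged from -6.15 to -2.67 over the other settings, the Lefty sum among them. With the library score as a covariate the differences at days 2 and 3 were -2.03 and -2.27 for LEFTY1 and -3.26 and -4.81 for LEFTY2. At day 6 LEFTY2 was still lower in E8 (-1.18, SE 0.278, adjusted p = 0.00327; all genes 5.28%), and at day 8 its difference was -0.58 (SE 0.269, adjusted p = 0.13). The sum of both Lefty genes, mostly LEFTY1 counts, gave no call at day 6 (-0.43, adjusted p = 0.13).

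CER1 in E8 was below its N2B27 level at day 6, at 6 against 170 counts (ratio 0.0404, 95% counting interval 0.0146 to 0.0897, adjusted p = 4.23e-07), and at day 8 by 12-fold (log2 fold change -3.59, SE 0.360, adjusted p = 9.68e-08; all genes 7.29%). No other member was called at day 8.

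In mTeSR the early difference from N2B27 was present at day 4 for LEFTY1 (-1.63, SE 0.186, adjusted p = 1.08e-06) and LEFTY2 (-3.77, SE 0.329, adjusted p = 1.43e-08), with 1.58% of all genes called. NODAL differed by -0.71 (SE 0.163, adjusted p = 0.00744), under the fold threshold. No member was called between mTeSR and N2B27 at day 6 (2.62%; 1 of 7 at an unadjusted p under 0.05) or day 8 (3.8%; 3 of 7), where LEFTY2 was higher in mTeSR by 0.87 (SE 0.248, adjusted p = 0.0194). Between mTeSR and E8, no member was called at day 4 (0.084%; 1 of 7), where LEFTY2 differed by 1.15 (SE 0.579, adjusted p = 0.563). LEFTY2 was higher in mTeSR at day 6 (1.54, SE 0.274, adjusted p = 0.000618; all genes 1.1%) and day 8 (1.45, SE 0.261, adjusted p = 0.000232; all genes 5.31%), and so was CER1 at day 8 (3.79, adjusted p = 9.08e-08). At day 6 CER1 was at 91 counts in mTeSR against 6 in E8, all in 1 of 2 libraries (ratio 14.1, 95% counting interval 6.25 to 39.5, adjusted p = 6.8e-05). The summed Lefty counts, mostly of LEFTY1, gave no call at days 6 and 8 (0.49 and 0.16).

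Over the 11 comparisons between media, which share libraries with each other, members were called 17 times in 77 tests, 13 lower and 4 higher, against 3.25% of tests over all genes, 1.64% lower and 1.61% higher. All 13 lower calls were in E8 or mTeSR against N2B27, and all 4 higher calls were in mTeSR against E8.

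A change of the medium difference with time was tested as an interaction. From day 4 to day 8 the difference of E8 from N2B27 moved upward for LEFTY1 by 2.41 (SE 0.256, adjusted p = 5.08e-07), from -2.29 to 0.12, and for LEFTY2 by 4.33 (SE 0.490, adjusted p = 9.68e-07), from -4.92 to -0.58, where 2.27% of all genes were called. For mTeSR against N2B27 the change was 1.67 for LEFTY1 (adjusted p = 7.34e-05), 4.64 for LEFTY2 (SE 0.419, adjusted p = 1.74e-08) and 0.93 for NODAL (SE 0.230, adjusted p = 0.0175), with 2.4% of all genes called. The NODAL call was lost without replicate 2 of N2B27 day 4 or day 8 and without replicate 1 of mTeSR day 4 or day 8, with 0.77 to 0.88 and adjusted p = 0.0838 to 0.171. Between days 2 and 4 no member gave a call for E8 against N2B27 (1.31%; 3 of 7 at an unadjusted p under 0.05). Over the 3 interactions members were called 5 times in 21 tests against 1.99%.

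Between consecutive days within a medium, members were called 11 times in 70 tests, all higher on the later day, against 2.52% over all genes. LEFTY1 and LEFTY2 rose in E8 from day 4 to 6 (1.88, SE 0.197, adjusted p = 7.63e-08, and 2.99, SE 0.450, adjusted p = 3.47e-05; all genes 2.51%) and in mTeSR over the same days (1.46, SE 0.188, adjusted p = 2.26e-06, and 3.38, SE 0.341, adjusted p = 2.63e-08; all genes 2.91%). CER1 rose from day 4 to 6 in N2B27, from 4 to 170 counts (ratio 49.4, interval 19 to 183; all genes 3.89%), and in mTeSR from 1 to 91 counts (ratio 85.4, interval 14.9 to 3408), and again in mTeSR from day 6 to 8 (1.87, SE 0.302, adjusted p = 0.000774; all genes 0.978%).

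The rises from day 2 to 3 were those of LEFTY1 and LEFTY2 in N2B27 (1.21 and 1.79; all genes 3.18%) and of NODAL and LEFTY1 in E8 (1.16 and 1.14; all genes 7.56%). They involve the libraries that stood apart. With the library score as a covariate the LEFTY1 value in N2B27 was 0.90 and the E8 values were 0.77 for NODAL and 0.66 for LEFTY1, and without replicate 2 of E8 day 3 they were 0.81 and 0.63 (adjusted p = 0.014 and 0.26). In a fit of the compared libraries alone the LEFTY1 rise in E8 did not pass the test (1.11, adjusted p = 0.0741). No member was called from day 3 to 4 or from day 6 to 8 in N2B27 (1.09% and 1.43%; 3 of 7 each at an unadjusted p under 0.05) or in E8 (0.81% and 0.804%; 1 and 4 of 7). LEFTY1 in N2B27 was 0.95 without replicate 2 of day 2 and 0.90 without replicate 2 of day 3.

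In Ex2, LEFTY2 was higher in FAX than in both other media, and it was the sole member called. LEFTY2 held 40.9 and 47.1 CPM in N2B27, 55.8 and 59.97 in XAV and 155 and 161 in FAX, the highest level of any group, with no overlap with the naive libraries on Geltrex in Ex1 (121 in both). It was 3.59-fold higher in FAX than in N2B27 (log2 fold change 1.84, SE 0.227, adjusted p = 7.47e-06), and 0.336% of all genes, 56 in number, were called. Against XAV it was higher by 1.45 (SE 0.218, adjusted p = 0.00298), as 1 of only 2 genes called (0.012%).

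**Figure D4:**
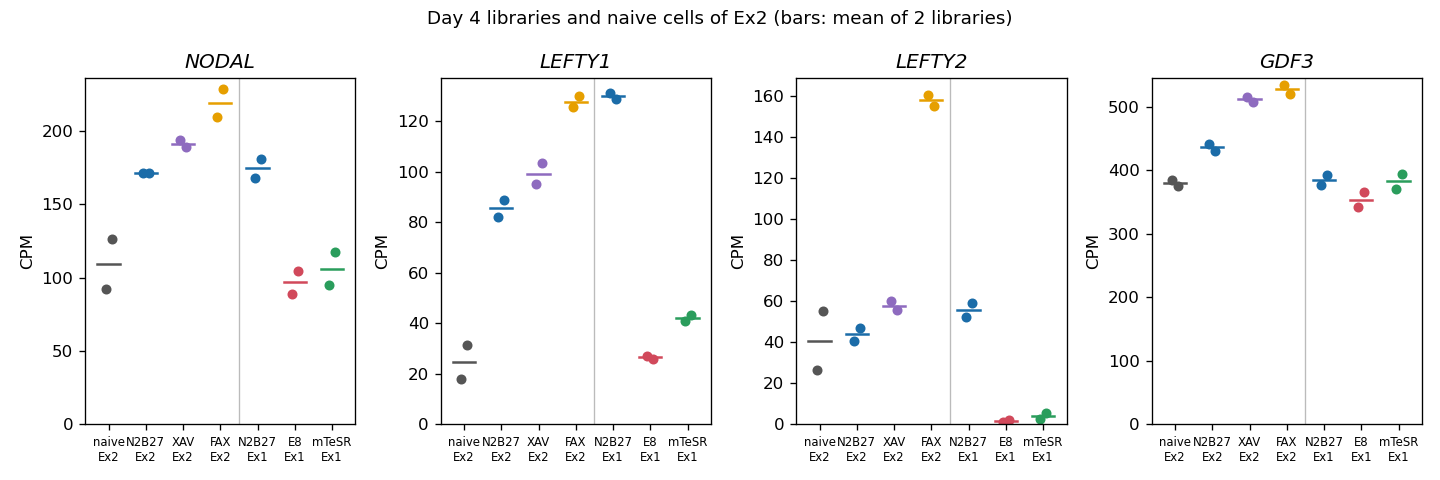
CPM of NODAL, LEFTY1, LEFTY2 and GDF3 at day 4 in Ex2 (N2B27, XAV, FAX, with the Ex2 naive libraries) and Ex1 (N2B27, E8, mTeSR); points are libraries and bars the mean of 2. LEFTY2 is at 155 and 161 in FAX and at 1.25 to 5.53 in E8 and mTeSR.

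The call against XAV was lost without any 1 of the 4 libraries compared, with log2 fold changes of 1.40 to 1.51 and adjusted p = 0.0596 to 0.241, and when the Lefty genes were summed (0.86, adjusted p = 0.225). LEFTY1 held 82.3 and 88.7 CPM in N2B27, 95.4 and 103 in XAV and 126 and 129.9 in FAX, a difference from N2B27 of 0.58 (SE 0.177, adjusted p = 0.152). NODAL held 171 in both N2B27 libraries, 189 and 194 in XAV and 209 and 229 in FAX, 0.36 above N2B27 (SE 0.160, adjusted p = 0.489). Neither gene passed the test between N2B27 and FAX. GDF3 likewise was listed at 431 and 442 in N2B27, 508 and 516 in XAV and 520.1 and 535 in FAX without a call. XAV against N2B27 gave no member (0.57%; 2 of 7 at an unadjusted p under 0.05), and over the 3 comparisons members were called 2 times in 21 tests against 0.306%. CER1 was at 2 and 3 counts in N2B27, 0 and 1 in XAV and 4 and 4 in FAX.

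Against the 6 naive libraries LEFTY1 was higher in FAX (1.15, SE 0.267, adjusted p = 0.000928), with 0.99 without replicate 1 of the Ex2 naive cells and 2.35 against the 2 naive libraries of Ex2 alone. CER1 was also called, but on 8 counts in all. Its FAX libraries, at 0.946 and 1.02 CPM, lie at the floor of the Ex2 naive libraries (1.02 and 0.830 CPM), so no bound on the fold is given. LEFTY2 in FAX differed from naive cells by 0.92 (SE 0.275, adjusted p = 0.00897), and by 1.93 against the 2 naive libraries of Ex2 alone. At day 4 E8 and mTeSR, which also contain FGF2 and a TGFβ family ligand, thus held LEFTY2 at 1.25 to 5.53 CPM in Ex1 and FAX at 155 and 161 in Ex2. FAX was not run in the same experiment as E8 and mTeSR, and the media differ in more than these components, so these components and the rest cannot be told apart.

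The naive cells of the 2 experiments differed in members of the pathway. On Geltrex, LEFTY1 was at 77.2 and 86.6 CPM in Ex1 and 18.1 and 31.3 in Ex2 (-1.70, SE 0.210, adjusted p = 1.1e-06), and LEFTY2 at 121 in both and 26.3 and 55.3 (-1.55, SE 0.233, adjusted p = 2.62e-05), with 4.67% of all genes called. NODAL held 215 and 218 CPM in Ex1 and 92.5 and 126 in Ex2 (-0.98, SE 0.165, adjusted p = 0.000113) and TDGF1 differed by -0.80 (SE 0.136, adjusted p = 0.000124), both under the fold threshold. FOXH1 differed in the other direction, at 95.8 and 96.7 CPM in Ex1 and 137 and 140.0 in Ex2 (0.53, SE 0.117, adjusted p = 0.00204), also under it. Between naive cells on Geltrex and on serum in Ex1 no member was called (0.048%; 3 of 7 at an unadjusted p under 0.05). Nor was any at N2B27 day 4 between the experiments (1.01%; 1 of 7). Over these 3 comparisons members were called 2 times in 21 tests against 1.91%. In all comparisons between 2 groups where edgeR called no member, DESeq2 called none either.

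Of 42 other genes of the pathway, 37 were tested. At day 8 against naive cells 15 were higher and 3 lower in N2B27 (median log2 fold change 0.48, all genes -0.03; 23.9% of all genes called), 11 higher and 7 lower in E8 (0.26, all genes 0.00; 27.5% called) and 12 higher and 3 lower in mTeSR (0.49, all genes -0.02; 25.1% called). The receptors TGFBR1 and TGFBR2 were among those that rose in N2B27 and E8, and TGFBR3, a co-receptor of the family, fell in all 3 media. None of the transducers SMAD2, SMAD3 and SMAD4 was called (4 of 9 tests at an unadjusted p under 0.05). Among the negative regulators, TGIF2, a SMAD co-repressor, rose in all 3 media (1.73, 1.30 and 2.03), and SMAD7, the inhibitory SMAD, rose in N2B27 (1.22, SE 0.187, adjusted p = 1.64e-06). FST, which encodes the Activin trap follistatin, rose by 3.56, 2.92 and 3.23, and DACT2, which promotes degradation of Nodal receptors, fell by 2.52, 3.16 and 2.55 on the log2 scale.

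Between E8 and N2B27 at day 8, 0 of the 37 genes were higher and 10 lower (median -0.48, all genes 0.01; 7.29% of all genes called): CFC1, a relative of TDGF1, the type I receptor ACVR1B, and 8 of 10 targets, among them EOMES, FOXA2, GSC and MIXL1. MIXL1, a homeobox gene of the primitive streak, held 100.1 and 145 CPM in N2B27, 12.5 and 12.7 in E8 and 85.9 and 109 in mTeSR (-3.27 in E8 against N2B27, SE 0.211, adjusted p = 6.44e-13). EOMES, a T-box factor of mesendoderm, was lower in E8 by -2.94 (adjusted p = 1.25e-09). At day 6, 1 was higher and 10 were lower (5.28% of all genes called), at day 4 none and 3 (2.49%), at day 3 none and 4 (1.68%), and at day 2, 1 and 3 (4.55%). At day 2 the lower genes were ACVR1B, MIXL1 and PMEPA1, an inhibitor of SMAD activation (-1.07, SE 0.218, adjusted p = 0.0014). Between mTeSR and N2B27 3 genes were lower at each of days 4, 6 and 8 and none higher (1.58%, 2.62% and 3.8%). In FAX against N2B27, MIXL1 rose (1.22, SE 0.230, adjusted p = 0.00325) and INHBA, an Activin subunit, fell (0.336% of all genes called). Between FAX and XAV, and between XAV and N2B27, 0 of the 37 were called (4 and 5 at an unadjusted p under 0.05).

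CER1 is itself expressed in endoderm and primitive streak, and markers of these cells moved with it.

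**Figure D5:**
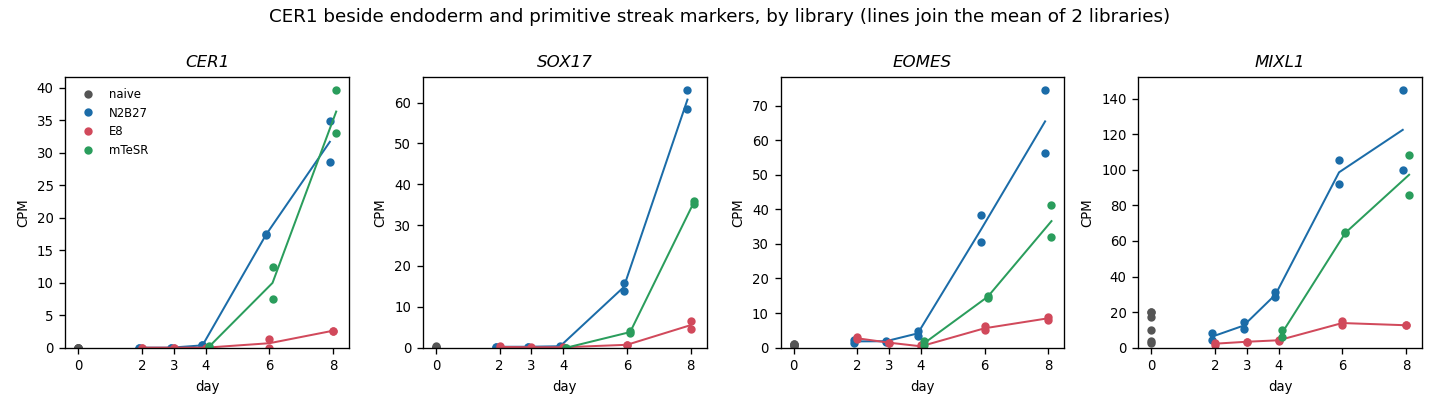
CPM of CER1, SOX17, EOMES and MIXL1 in each library by day and medium; each point is 1 library, and the lines join group means. All 4 genes are higher in N2B27 and mTeSR than in E8 at day 8.

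Of 6 endoderm markers 5 were tested, and all 5 (FOXA2, GATA4, GATA6, PDGFRA and SOX17) were higher than in naive cells at day 8 in each of the 3 media and lower in E8 than in N2B27. Of 5 streak markers 4 were tested, with 4 higher at day 8 in N2B27 and mTeSR, 3 in E8, and 4 lower in E8 than in N2B27. SOX17, an endoderm transcription factor, held 58.4 and 63.0 CPM at day 8 in N2B27, 35.3 and 35.8 in mTeSR and 4.47 and 6.56 in E8. Of 6 trophectoderm or amnion markers, 5 were higher than naive at day 8 in N2B27, 2 in E8 and 1 in mTeSR, and 5 were lower in E8 than in N2B27. Over all genes, 23.9% in N2B27, 27.5% in E8 and 25.1% in mTeSR were called at day 8 against naive cells in either direction. Between E8 and N2B27 it was 7.29%. The trophectoderm or amnion counts of E8 and mTeSR against naive cells lie near these shares. The part of these cell types in the CER1 result was not tested.

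The genes with patterns most like the members' were ranked by Pearson's r of log2 CPM over the 19 group means, among 11451 genes of at least 10 CPM in 1 group. The groups differ in day and depth, and the part of either in these values was not tested. LEFTY2 was most like AL117348.1 (0.952), FZD5 (0.940) and FN3KRP (0.905), and CER1 most like SOX17 (0.963), MMP2 (0.961) and ERBB4 (0.952). NODAL was nearest to SLC16A1-AS1 (0.924), AC016582.3 (0.899) and ABRAXAS2 (0.894). Among the genes most like LEFTY1 were DCAF16 (0.890) and TBC1D31 (0.878). TDGF1 gave ITGA6 (0.916), TRAM1 (0.909) and RBBP8 (0.905), GDF3 gave GRPEL1 (0.889), PHF5A (0.878) and THUMPD1 (0.871), and FOXH1 gave MTFP1 (0.885), TBCC (0.875) and NFATC4 (0.869). Among members, r was 0.892 between NODAL and LEFTY2, 0.828 between NODAL and LEFTY1, 0.743 between the Lefty genes and 0.612 between LEFTY1 and CER1.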

How the data were processed

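QuantSeq 3′ mRNA libraries of 38 Shef6 samples were analysed. The authors deposited whole-number counts per gene for all samples in 1 table, made with nf-core/rnaseq. The submitters' notes name FastQC 0.11.9, STAR 2.7.10a, Salmon 1.9.0 and hg38. Strand setting and annotation release are not given in the sources used here. Reads without molecular identifiers are not independent molecules, so intervals and floors cover counting error only.

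Counts were tested with edgeR 4.0.16 in R 4.3.3 (TMM scaling, filterByExpr, glmQLFTest), and p-values were Benjamini-Hochberg adjusted over all 16674 genes tested, which hold 99.6% of counts. Comparisons with naive cells came from a fit of 16 levels of medium and day, which pools the 6 naive libraries and the 4 of N2B27 day 4. All others came from a fit of the 19 groups of 2, with a biological coefficient of variation of 10.0%. Interactions needed the adjusted p alone. The floor was 3 counts per library, and counting intervals are exact at 95%. CPM are counts over the TMM effective size of the tested genes. The procedure was tested on simulated data.

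The text names the 7 members, pathway and marker genes from lists, and per member the 3 genes most like it; 1 of these is not reported here. The members and lists were chosen with earlier results of these data known. Alternatives were RLE scaling (as in DESeq2), plain totals, other filters, DESeq2 1.42.0, other naive sets, a replicate block, an experiment term, summed paralogs, the compared libraries alone, each library left out, and a library score, which was added after seeing the data. Transcript windows and positions used GENCODE 44 (GRCh38), and promoters used RefSeq, both read with Python 3.11.15.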

Additional observations from a re-analysis of the deposited data

Results flagged for a closer look

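Tests of whether the difference between media changed from day 4 to day 8 singled out 5 values of 3 members. For E8 minus N2B27 the change was 2.41 on the log2 scale for LEFTY1 and 4.33 for LEFTY2, and for mTeSR minus N2B27 it was 1.67 for LEFTY1, 4.64 for LEFTY2 and 0.93 for NODAL. In each case the level in E8 or mTeSR was below that in N2B27 at day 4, with no overlap between libraries, and the mean was closer to it or above it at day 8. A test of gaps among the 6 naive libraries and the 4 of N2B27 day 4 flagged no single outlying sample. Each pool held both experiments, and libraries that lie low together can hide one another. The Ex2 naive libraries did so for LEFTY1 and TDGF1, so the test could find little. CER1 had no counts in naive cells and was not tested there.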

How the results depend on the processing

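Of the 66 differences of members that were called, 42 kept their call and direction in every other setting. Among these settings was the Lefty sum, which stood for each Lefty gene. The calls against naive cells numbered 28 to 32 with each library left out in turn (29 with all), those between media 16 to 19 (17), between days 9 to 12 (11), within Ex2 1 to 2 (2), between experiments or coatings 2 to 3 (2) and for interactions 4 to 6 (5). With the libraries compared alone in each test the counts were, in the same order, 22, 16, 10, 2, 2 and 7, and with DESeq2 29, 17, 11, 2, 2 and 6. Without a filter on low counts 8 interactions were called. With the library score the counts were 30, 16, 8, 2, 3 and 7. With LEFTY1 and LEFTY2 summed there were 22, 14 and 12 calls against naive cells, between media and between days. The sum stood for each Lefty gene, so its calls were counted for both, and these totals are not like the others. LEFTY1 held most of its counts in N2B27 and E8, so the sum does not measure LEFTY2 alone. It was above naive cells by 0.057 at N2B27 day 3, 0.11 at day 6, 0.44 at day 8 and 0.48 at E8 day 8, where LEFTY2 alone was lower. For E8 against N2B27 at day 8 the sum gave 0.039, where LEFTY2 alone was lower without a call. Of the 21 genes most like the members, 13 were also named over the 38 single libraries. With the replicate number as a block (replicate block) the counts were 29, 17, 11, 2, 2 and 7. Replicates with the same number did not deviate together (median correlation 0.0031, range -0.350 to 0.258 over 171 pairs of groups), so the numbers were not taken as pairing. The depth limits CER1 up to day 4 and LEFTY2 in E8 up to day 4, which lie near the floor.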
